A study of Rattus norvegicus with 24 samples.

Results

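The transcripts described here encode the enzymes of cholesterol synthesis (the sterol branch), the enzymes of fatty acid synthesis and desaturation (the fatty acid branch), the proteins that regulate both through the sterol regulatory element-binding proteins (SREBPs), and Stard4, a sterol carrier. They were taken by symbol from a list of 35 SREBP-pathway genes, and 32 had a mean of at least 10 reads in each of the 6 groups, out of 12312 such identifiers among the 26404 in the tables. The 32 were 17 genes of the sterol branch, 5 regulators (Srebf1, Srebf2, Scap, Insig1 and Insig2), Stard4 and 9 genes of the fatty acid branch. Acat2 and Scd2 were not analysed here. Scd was matched by an older symbol and left out with 8.75 reads in its lowest group, and Hsd17b7, with 18.2, was the member closest above that limit. The samples were wells of INS-1, an insulin-secreting cell line from a rat islet tumour that is used in place of primary beta cells, and mRNA libraries were made from their total RNA. After 90 min in medium with 3 mM glucose, all wells received fresh medium with 11 mM glucose and then 100 nM GLP-1, 1 µM BMS-21 or the DMSO vehicle alone (Control), for 1 or 6 h. Each of the 6 groups (GLP-1, BMS-21 and Control at 1 h and again at 6 h) had 4 libraries. GLP-1 is the incretin peptide hormone whose receptor on beta cells raises cyclic AMP. BMS-21 is known here by its code name only.

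SREBPs are made as membrane proteins of the endoplasmic reticulum and are held there by SCAP, their sterol-sensing escort, and the INSIG proteins. When membrane sterol is low, SCAP carries the SREBP to the Golgi, where proteases release the domain that enters the nucleus and switches on its targets. The product of Srebf2 acts mainly on cholesterol synthesis and that of Srebf1 mainly on fatty acid synthesis, while Insig1 is itself a target and closes a feedback loop. STARD4 moves cholesterol between membranes through the cytosol. In beta cells the carbon for both branches can come from glucose by way of citrate, and membrane cholesterol bears on the exocytosis of insulin granules.

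The libraries held 10667350 to 13148970 reads. Levels are given below as TMM-scaled reads, that is, the reads of each gene brought to a common library size over all 24 libraries with 1 scale for all groups, and in the order of replicates 1 to 4, while limma's tests used the normalised counts of each deposited table. All 7 beta-cell markers used were measured (Ins1, Ins2, Iapp, Pdx1, Nkx6-1, Mafa and Slc2a2), and their sum was 182869 to 232169 TMM-scaled reads per library. Of 10 markers of cells other than beta cells (islet, acinar, duct and stroma), 2 (Gcg and Ghrl) passed the same limit of 10 reads, the sum of the 10 was 96.7 to 195, and Cela1 was at 0 reads in every library. At 6 h the beta-cell sum ran from 194969 to 208872 with GLP-1 and 199206 to 232169 with BMS-21, against 182869 to 192791 in Control. The sum of the other markers ran from 139 to 148 with GLP-1 and 135 to 195 with BMS-21 at 6 h, against 114 to 140.0 in Control, and the part of either sum in the results was not tested. The labels do not say whether the 4 libraries of a group came from separate cultures, so p-values measure the spread between these libraries, which may be technical. In bulk RNA, fewer expressing cells and less RNA per cell cannot be told apart.

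The question at 1 h was which of these genes responded early to each agent. With either agent Stard4, Insig1 and 4 sterol enzymes (Hmgcs1, Idi1, Cyp51 and Msmo1, the last with a BMS-21 call that most alternatives ended) were higher than Control. The fatty acid genes called, Fasn with both agents and Acaca with BMS-21, were lower, and leaving out single libraries ended each of these calls. With GLP-1, 6 of the 32 were higher and 1 was lower (limma on log2 of the normalised count plus 1, Benjamini-Hochberg adjusted p under 0.05 over all genes tested), where 4.17% of all 12715 genes tested were higher and 2.41% were lower. The 1 lower call of 32 is near the share of all genes. With BMS-21, 6 were higher and 3 lower, where the shares of 12697 genes were 3.54% higher and 2.37% lower. With the reads scaled by library totals the calls over all genes numbered 449 up and 506 down with GLP-1, beside 530 and 307, and 380 and 445 with BMS-21, beside 450 and 301. The comparisons with GLP-1 and with BMS-21 share their Control libraries.

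Stard4, the sterol carrier gene (ENSRNOG00000020468), had the largest change of the 32 at 1 h. It had 1137, 1089.7, 795 and 954 TMM-scaled reads in the GLP-1 libraries, 1029.8, 986, 665 and 919.9 in the BMS-21 libraries and 334, 349.9, 333 and 348 in the Control libraries. Every library of either agent lay above every Control library, and with both agents replicate 3 was the lowest. The log2 change was 1.53 ± 0.088 with GLP-1 (adjusted p = 1.57e-08) and 1.38 ± 0.12 with BMS-21 (adjusted p = 1.08e-04), or 2.89-fold and 2.60-fold. Insig1, the feedback inhibitor of SREBP export (ENSRNOG00000006859), had 2384, 2285, 2528 and 2461 TMM-scaled reads in the GLP-1 libraries, 2275, 2251, 2257 and 2432 in the BMS-21 libraries and 1616, 1611, 1726 and 1716 in the Control libraries. Its agent libraries were all above Control as well. On the log2 scale Insig1 changed by 0.54 ± 0.040 with GLP-1 (adjusted p = 1.43e-10) and 0.47 ± 0.040 with BMS-21 (adjusted p = 8.82e-09).

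Of the sterol enzymes, Idi1, the isopentenyl diphosphate isomerase gene, had 338, 341, 302 and 311 TMM-scaled reads in the GLP-1 libraries, 359, 330.2, 291 and 316 in the BMS-21 libraries and 273, 233, 216 and 238 in the Control libraries. Agent and Control libraries were fully separated. The log2 change of Idi1 was 0.44 ± 0.076 with GLP-1 (adjusted p = 2.19e-04) and 0.44 ± 0.080 with BMS-21 (adjusted p = 7.00e-04). Hmgcs1, which makes HMG-CoA at the entry to the mevalonate pathway, had 886, 856, 897 and 881 TMM-scaled reads in the GLP-1 libraries, 839.8, 838, 799 and 849.8 in the BMS-21 libraries and 731, 690.5, 729 and 712 in the Control libraries. The agent libraries were again all higher, with the GLP-1 libraries above the BMS-21 libraries. Hmgcs1 changed on the log2 scale by 0.30 ± 0.045 with GLP-1 (adjusted p = 2.65e-05) and 0.22 ± 0.046 with BMS-21 (adjusted p = 0.00304).

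Cyp51, the lanosterol demethylase gene, had 1483, 1437, 1412 and 1568 TMM-scaled reads in the GLP-1 libraries, 1531, 1359, 1404 and 1511 in the BMS-21 libraries and 1284, 1223, 1277 and 1286 in the Control libraries. Neither agent's libraries overlapped with Control, in which replicate 2 was the lowest. Cyp51 changed on the log2 scale by 0.22 ± 0.042 with GLP-1 (adjusted p = 6.35e-04) and 0.20 ± 0.044 with BMS-21 (adjusted p = 0.00573). Msmo1, the methylsterol oxidase gene that acts later than Cyp51, had 1162, 1127, 1147 and 1292 TMM-scaled reads in the GLP-1 libraries, 1169.7, 1067, 1132 and 1179 in the BMS-21 libraries and 937, 921, 1051 and 1104 in the Control libraries. The GLP-1 libraries lay above Control, while BMS-21 replicate 2 fell below Control replicate 4. For Msmo1 the log2 change was 0.24 ± 0.058 with GLP-1 (adjusted p = 0.00979) and 0.19 ± 0.055 with BMS-21 (adjusted p = 0.0484). The call of Msmo1 with BMS-21 was lost without any 1 of 5 libraries, with adjusted p 0.143, 0.0703 and 0.161 without BMS-21 replicates 1, 3 and 4, and 0.181 and 0.194 without Control replicates 1 and 2. It was also lost with a mean of at least 50 (adjusted p = 0.0518), with no filter on low values (0.0661), with TMM factors (0.0501), with library totals (0.101), by edgeR (0.0623), by DESeq2 (0.075) and with all 24 libraries in 1 fit (0.145). In replicates 3 and 4 alone, the calls lost at 1 h were Msmo1 (adjusted p = 0.0938) and Fasn (0.329) with GLP-1 and Hmgcs1 (adjusted p = 0.118), Mvd (0.121), Cyp51 (0.0589), Msmo1 (0.539) and Fasn (0.219) with BMS-21. In replicates 1 and 2 alone they were Mvd (adjusted p = 0.301) and Acaca (0.13) with BMS-21.

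The calls in the other direction at 1 h were small. Fasn, the fatty acid synthase gene, had 4564, 4547, 4730.4 and 4747 TMM-scaled reads in the GLP-1 libraries, 4423, 4519.8, 4797 and 4558 in the BMS-21 libraries and 4995, 5073, 5144 and 4943 in the Control libraries. All agent libraries were below all Control libraries. For Fasn the log2 change was -0.11 ± 0.032 with GLP-1 (adjusted p = 0.026) and -0.14 ± 0.034 with BMS-21 (adjusted p = 0.0125). With GLP-1 this call was lost without GLP-1 replicate 1 or 2 (adjusted p = 0.0912 and 0.1) or Control replicate 2 or 3 (0.0722 and 0.0944), and with BMS-21 without BMS-21 replicate 1 (0.0688) or Control replicate 3 (0.0501). Acaca, the acetyl-CoA carboxylase gene, had 2775, 2922, 2479 and 2454 TMM-scaled reads in the GLP-1 libraries, 2533, 2622, 2308 and 2246 in the BMS-21 libraries and 2782, 2799, 2588 and 2685 in the Control libraries. Libraries of both agents overlapped with Control. Acaca changed on the log2 scale by -0.030 ± 0.048 with GLP-1 (adjusted p = 0.865) and -0.16 ± 0.046 with BMS-21 (adjusted p = 0.038).

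Mvd, the mevalonate diphosphate decarboxylase gene, had 94.9, 95.2, 103 and 87.6 TMM-scaled reads in the GLP-1 libraries, 82.0, 92.7, 92.1 and 76.7 in the BMS-21 libraries and 118, 99.8, 108 and 121 in the Control libraries. Its BMS-21 libraries lay below Control and its GLP-1 libraries overlapped with Control. For Mvd the log2 change was -0.22 ± 0.10 with GLP-1 (adjusted p = 0.282) and -0.37 ± 0.11 with BMS-21 (adjusted p = 0.0406), and it was the sterol gene called lower with BMS-21. Both BMS-21 calls, of Acaca and of Mvd, were lost without any 1 of 5 libraries. For Acaca these were BMS-21 replicates 3 and 4 (adjusted p = 0.111 and 0.179) and Control replicates 1, 2 and 4 (0.127, 0.126 and 0.0796), and for Mvd they were BMS-21 replicates 1 and 4 (0.114 and 0.142) and Control replicates 1, 3 and 4 (0.135, 0.0682 and 0.133). The Mvd call was also lost with no filter on low values (0.0642) and by DESeq2 (0.185), and the Acaca call with no filter (0.0521), by edgeR (0.0531) and with all 24 libraries in 1 fit (0.0558), so that without the filter 1 member, Fasn, was lower with BMS-21, against 3 with it. With the replicate number as a block, Dhcr7 (log2 change -0.17 ± 0.053, adjusted p = 0.0713 without the block and 0.015 with it) and Acly (-0.063 ± 0.033, 0.392 and 0.00137) also passed as lower with BMS-21.

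The remaining members did not pass at 1 h. With GLP-1 the 13 other sterol genes ran from -0.22 to 0.31 on the log2 scale and the 8 other fatty acid genes from -0.090 to 0.060. With BMS-21 the 12 other sterol genes ran from -0.17 to 0.27 and the 7 other fatty acid genes from -0.12 to 0.014. Of the regulators, Srebf2 had 2196, 2141, 2366 and 2230.4 TMM-scaled reads in the GLP-1 libraries, 2122, 2134, 2276 and 2101 in the BMS-21 libraries and 2246, 2130.1, 2255 and 2169 in the Control libraries. Srebf1 had 2445, 2403, 2552 and 2596 TMM-scaled reads in the GLP-1 libraries, 2475, 2268, 2557 and 2354 in the BMS-21 libraries and 2530.1, 2448, 2631 and 2365 in the Control libraries. Scap had 868, 878, 934 and 916 TMM-scaled reads in the GLP-1 libraries, 868, 983, 970.2 and 897 in the BMS-21 libraries and 897, 854, 946 and 872 in the Control libraries. The groups overlapped for these 3 genes, which encode the transcription factors and their escort. Insig2, the INSIG gene known as a poor SREBP target, had 319, 328, 319.8 and 311 TMM-scaled reads in the GLP-1 libraries, 353, 313, 385 and 326 in the BMS-21 libraries and 314, 330.3, 329 and 367 in the Control libraries, again with overlapping groups. The adjusted p of these 4 regulators was 0.756 to 0.97 with GLP-1 and 0.673 to 0.89 with BMS-21.

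**Figure D1:**
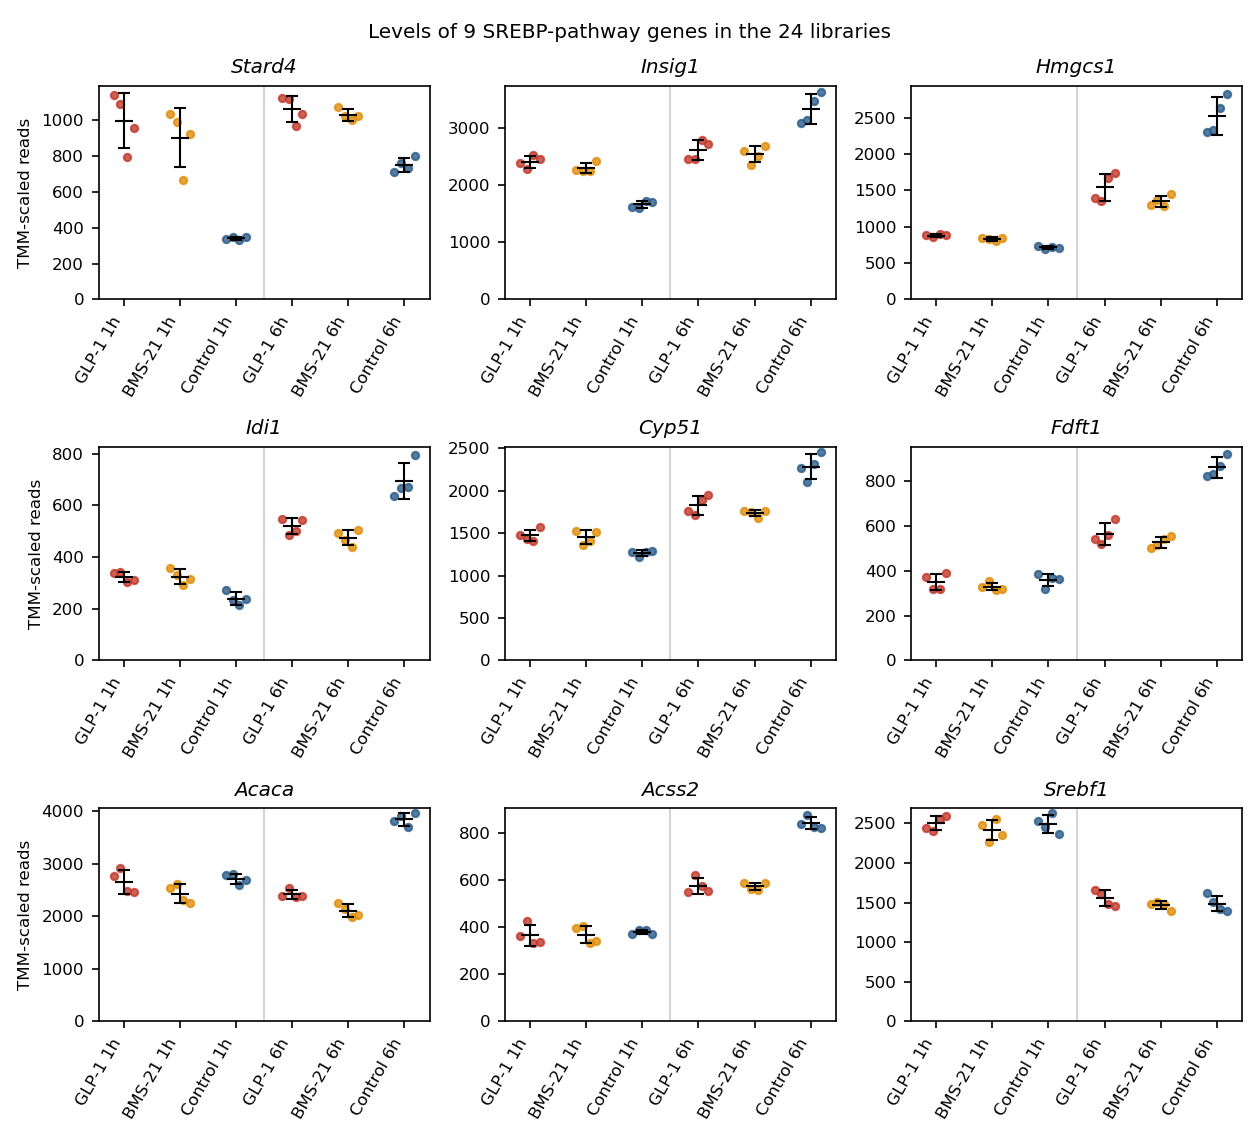
Levels of 9 genes in every library, as TMM-scaled reads on linear axes from 0, with GLP-1, BMS-21 and Control at 1 h left of the grey line and at 6 h right of it. Points are libraries and black bars the mean ± SD of 4. Against Control of the same time, Stard4 is higher with either agent at both times, and Insig1, Hmgcs1, Idi1 and Cyp51 are higher at 1 h and lower at 6 h. Srebf1 is lower at 6 h than at 1 h in all 3 treatments.

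Since the 4 sterol enzymes and Insig1 moved together at 1 h, their proximal promoters are shown, with that of Srebf2, which encodes the factor known for driving them and did not pass at 1 h. The sequences are the 250 bases before the RefSeq start site in the rat build GRCr8, on the gene's strand, at chr2:53382054-53382303 (+ strand) for Hmgcs1, chr17:66547525-66547774 (- strand) for Idi1, chr4:30991443-30991692 (+ strand) for Cyp51, chr16:29746863-29747112 (+ strand) for Msmo1, chr4:8057770-8058019 (- strand) for Insig1 and chr7:115543057-115543306 (+ strand) for Srebf2. Capitals mark matches on either strand to the CCAAT box (CCAAT), bound by NF-Y, a partner of SREBPs, to TGACG, the core of the cyclic AMP response element (CRE), to the E-box (CACGTG), and to TCACNCCA, the start of the sterol regulatory element.
Hmgcs1: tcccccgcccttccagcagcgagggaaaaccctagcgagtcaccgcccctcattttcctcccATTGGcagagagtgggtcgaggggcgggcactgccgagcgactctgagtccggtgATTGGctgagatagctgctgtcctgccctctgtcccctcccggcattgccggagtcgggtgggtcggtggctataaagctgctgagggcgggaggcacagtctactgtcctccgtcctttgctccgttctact
Idi1: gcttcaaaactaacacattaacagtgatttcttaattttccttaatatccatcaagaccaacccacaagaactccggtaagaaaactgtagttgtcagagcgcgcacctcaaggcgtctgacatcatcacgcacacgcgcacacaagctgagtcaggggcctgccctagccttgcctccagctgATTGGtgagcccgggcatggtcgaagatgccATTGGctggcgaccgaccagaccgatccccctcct
Cyp51: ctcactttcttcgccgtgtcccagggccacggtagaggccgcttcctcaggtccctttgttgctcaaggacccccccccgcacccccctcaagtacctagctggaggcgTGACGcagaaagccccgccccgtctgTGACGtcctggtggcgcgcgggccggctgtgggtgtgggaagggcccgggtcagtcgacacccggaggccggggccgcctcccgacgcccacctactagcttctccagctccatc
Msmo1: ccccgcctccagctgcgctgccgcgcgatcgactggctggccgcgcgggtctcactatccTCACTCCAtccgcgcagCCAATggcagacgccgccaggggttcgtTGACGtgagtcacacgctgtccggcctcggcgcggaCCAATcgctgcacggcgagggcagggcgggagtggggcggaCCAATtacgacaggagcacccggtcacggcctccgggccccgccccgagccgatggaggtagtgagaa
Insig1: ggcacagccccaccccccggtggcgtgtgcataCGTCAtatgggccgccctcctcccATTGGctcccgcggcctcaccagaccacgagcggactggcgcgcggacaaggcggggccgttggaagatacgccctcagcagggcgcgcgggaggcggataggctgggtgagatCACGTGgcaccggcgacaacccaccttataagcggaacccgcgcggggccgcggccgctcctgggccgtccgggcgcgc
Srebf2: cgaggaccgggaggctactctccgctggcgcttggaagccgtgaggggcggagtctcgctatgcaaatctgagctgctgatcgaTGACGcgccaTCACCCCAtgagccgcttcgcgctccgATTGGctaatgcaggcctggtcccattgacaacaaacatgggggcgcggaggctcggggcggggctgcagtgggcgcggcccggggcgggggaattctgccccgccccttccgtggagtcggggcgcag

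A RefSeq window was matched for 25 of the 32 members, and Pmvk, Fdft1, Sqle, Stard4, Acaca, Fasn and Elovl6 had none in the table used. A CCAAT box was found in 20 of 25 genes and in 34.0% of all windows of this length, a GC box (GGGCGG, bound by Sp1) in 22 of 25 genes and in 30.5% of all windows, and the CRE core in 11 of 25 genes and in 18.2% of all windows. Among 33469 windows, the 21842 of protein-coding genes held them in 34.98%, 38.9% and 20.4%. All members were expressed in these cells and the share among expressed genes was not counted, so no enrichment is read from these shares. The CRE core was in Cyp51, Msmo1, Insig1 and Srebf2 of those shown, and in neither Hmgcs1 nor Idi1. The full CRE (TGACGTCA), which contains the core, and TCACNCCAC were in no member window, and were in 1.59% and 0.974% of all windows. The shorter TCACNCCA, part of it and searched after the longer form gave no match, was in Msmo1 and Srebf2 and in 3.24% of all windows. An E-box was in 3 of 25 genes and in 5.59% of all windows, the genes being Insig1, Sc5d and Scap. A match describes letters, not binding.

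At 6 h most genes of both branches were lower with either agent than in Control, among them the 4 sterol enzymes and Insig1 that were higher at 1 h, and Stard4 was higher. Against Control, fell and rose mean lower and higher than Control of the same time, not a change over time. With GLP-1, 22 of the 32 fell and 1 (Stard4) rose, where 15.6% of 12641 genes tested were lower and 16.2% higher. With BMS-21, 24 fell and 2 (Stard4 and Insig2) rose, where 16.8% of 12640 genes were lower and 16.8% higher. Scaled by library totals, the calls over all genes were 1451 up and 2960 down with GLP-1, beside 2044 and 1967, and 1510 and 3068 with BMS-21, beside 2125 and 2128, while no called member changed direction. In the authors' deposited tables, at their adjusted p under 0.05, 6 of the 32 were higher and 1 lower with GLP-1 and 5 of the 32 were higher and 2 lower with BMS-21 at 1 h, and 1 of the 32 were higher and 22 lower with GLP-1 and 2 of the 32 were higher and 23 lower with BMS-21 at 6 h. The share of all genes at the authors' adjusted p was not counted here, so nothing is read from these counts.

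In the sterol branch 13 of 17 fell with GLP-1 (log2 change -0.71 to -0.17) and 14 with BMS-21 (-0.90 to -0.17). Hmgcs1, among the genes that were higher at 1 h, had 1400.3, 1361, 1671 and 1739 TMM-scaled reads in the GLP-1 libraries, 1300.4, 1367, 1288 and 1448 in the BMS-21 libraries and 2298, 2325, 2639 and 2830.3 in the Control libraries. No agent library reached the lowest Control library. The change was -0.71 ± 0.10 with GLP-1 (adjusted p = 9.74e-04) and -0.90 ± 0.060 with BMS-21 (adjusted p = 7.32e-09). Fdft1, the squalene synthase gene at the branch point to sterols, had 540.1, 521, 558 and 632 TMM-scaled reads in the GLP-1 libraries, 499, 512, 539 and 553 in the BMS-21 libraries and 820.0, 831, 866 and 920.0 in the Control libraries. Agent and Control libraries were again fully apart. Fdft1 changed by -0.61 ± 0.057 with GLP-1 (adjusted p = 3.83e-08) and -0.71 ± 0.052 with BMS-21 (adjusted p = 4.82e-10).

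Pmvk, the phosphomevalonate kinase gene, had 391, 361, 367 and 358 TMM-scaled reads in the GLP-1 libraries, 308, 328, 323 and 311 in the BMS-21 libraries and 563, 508, 519 and 476 in the Control libraries. The BMS-21 libraries were the lowest, the GLP-1 libraries came next and the Control libraries were the highest, with no overlap. Pmvk changed by -0.48 ± 0.060 with GLP-1 (adjusted p = 2.51e-06) and -0.70 ± 0.061 with BMS-21 (adjusted p = 8.69e-09). Hsd17b7, a sterol ketoreductase gene and the least abundant member, had 42.0, 31.3, 37.3 and 30.8 TMM-scaled reads in the GLP-1 libraries, 38.1, 27.5, 40.2 and 45.2 in the BMS-21 libraries and 49.8, 51.2, 63.5 and 64.3 in the Control libraries. Its agent and Control libraries did not overlap, though GLP-1 and BMS-21 libraries did. The change of Hsd17b7 was -0.68 ± 0.15 with GLP-1 (adjusted p = 0.00168) and -0.60 ± 0.16 with BMS-21 (adjusted p = 0.006). Idi1, higher than Control at 1 h, had 548, 485, 502 and 546 TMM-scaled reads in the GLP-1 libraries, 492, 468, 441 and 503 in the BMS-21 libraries and 638, 668, 672 and 797 in the Control libraries. At this time all libraries of both agents lay below all Control libraries. The change of Idi1 was -0.41 ± 0.063 with GLP-1 (adjusted p = 3.81e-05) and -0.54 ± 0.064 with BMS-21 (adjusted p = 8.21e-07). Cyp51, of the same early group, had 1766, 1710.2, 1894 and 1951 TMM-scaled reads in the GLP-1 libraries, 1761, 1745, 1681 and 1761 in the BMS-21 libraries and 2267, 2099, 2316 and 2455 in the Control libraries, and all libraries of both agents lay below all Control libraries. Cyp51 changed by -0.32 ± 0.047 with GLP-1 (adjusted p = 2.76e-05) and -0.39 ± 0.043 with BMS-21 (adjusted p = 2.13e-07). Msmo1, of a later demethylation step, changed by -0.24 ± 0.073 with GLP-1 (adjusted p = 0.0259) and -0.35 ± 0.059 with BMS-21 (adjusted p = 1.96e-04), and its call with GLP-1 was lost without GLP-1 replicate 1 or 2 (adjusted p = 0.0531 and 0.0583) or Control replicate 3 (0.06).

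Mvk, Fdps, Sqle, Lss, Sc5d and Dhcr7 fell with both agents, with log2 changes of -0.40 to -0.17 with GLP-1 and -0.39 to -0.17 with BMS-21, and Nsdhl fell with BMS-21. Lss, the lanosterol synthase gene, was at -0.17 ± 0.048 with GLP-1, a call lost without Control replicate 3 (adjusted p = 0.0514), and at -0.17 ± 0.054 with BMS-21, lost without BMS-21 replicate 1 or 2 (0.0816 and 0.0661) or Control replicate 3 (0.0906). Nsdhl was at -0.11 ± 0.058 with GLP-1 (adjusted p = 0.178) and -0.20 ± 0.061 with BMS-21 (adjusted p = 0.0144). Tm7sf2 and Ebp, a sterol reductase and a sterol isomerase gene, did not pass with either agent, with -0.11 ± 0.11 and -0.12 ± 0.094 with GLP-1 and -0.001 ± 0.10 and 0.022 ± 0.10 with BMS-21. Mvd, with 278, 301, 306 and 337 TMM-scaled reads in the GLP-1 libraries, 289.5, 248, 293 and 273 in the BMS-21 libraries and 334, 310.2, 292 and 303 in the Control libraries, was at -0.016 ± 0.069 with GLP-1 (adjusted p = 0.889) and -0.17 ± 0.071 with BMS-21 (adjusted p = 0.0754), and passed as lower with BMS-21 when the replicate number was a block (adjusted p = 0.046).

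In the fatty acid branch 7 of 9 fell with GLP-1 (-0.67 to -0.13) and 8 with BMS-21 (-0.87 to -0.22). Acaca, whose product makes malonyl-CoA in the committed step, had 2376, 2546, 2357 and 2381 TMM-scaled reads in the GLP-1 libraries, 2260.2, 2141, 1978 and 2033 in the BMS-21 libraries and 3807, 3906, 3694 and 3959 in the Control libraries. The 3 groups did not overlap, with BMS-21 the lowest and Control the highest. Acaca changed by -0.67 ± 0.036 with GLP-1 (adjusted p = 7.00e-12) and -0.87 ± 0.041 with BMS-21 (adjusted p = 4.18e-13), the smallest adjusted p of the 32 with either agent. Acss2, which makes acetyl-CoA from acetate, had 549, 619.6, 574 and 553 TMM-scaled reads in the GLP-1 libraries, 585, 562, 556 and 586 in the BMS-21 libraries and 838, 876, 825 and 819 in the Control libraries. Agent and Control libraries did not overlap. Acss2 changed by -0.55 ± 0.049 with GLP-1 (adjusted p = 2.50e-08) and -0.55 ± 0.047 with BMS-21 (adjusted p = 6.17e-09).

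Fads1 and Fads2, neighbouring genes whose products desaturate long polyunsaturated fatty acids, also fell. Fads1 had 1297, 1399.9, 1311 and 1339.8 TMM-scaled reads in the GLP-1 libraries, 1322, 1317, 1148 and 1158 in the BMS-21 libraries and 1785, 1794, 1689 and 1772 in the Control libraries. Fads2 had 1230.3, 1220.0, 1205 and 1167 TMM-scaled reads in the GLP-1 libraries, 1183, 1137, 1093 and 1204 in the BMS-21 libraries and 1567, 1578, 1603 and 1567 in the Control libraries. For both genes all agent libraries lay below Control. Fads1 changed by -0.39 ± 0.038 with GLP-1 (adjusted p = 7.05e-08) and -0.51 ± 0.049 with BMS-21 (adjusted p = 3.42e-08). Fads2 changed by -0.39 ± 0.037 with GLP-1 (adjusted p = 4.79e-08) and -0.45 ± 0.041 with BMS-21 (adjusted p = 1.23e-08). Acly, the ATP citrate lyase gene that supplies cytosolic acetyl-CoA, had 47412, 48373, 46265 and 46368 TMM-scaled reads in the GLP-1 libraries, 45645, 46873, 44021 and 46181 in the BMS-21 libraries and 59374, 59579, 56112 and 56254 in the Control libraries. At 6 h all libraries of both agents lay below all Control libraries. The change of Acly was -0.29 ± 0.028 with GLP-1 (adjusted p = 6.58e-08) and -0.34 ± 0.033 with BMS-21 (adjusted p = 4.30e-08). Fasn, whose enzyme completes palmitate, had 5625, 5559, 5705 and 6131 TMM-scaled reads in the GLP-1 libraries, 5224, 5308, 5356 and 5707 in the BMS-21 libraries and 6141, 6321, 6279.8 and 6465 in the Control libraries. Here all libraries of both agents lay below all Control libraries. The change of Fasn was -0.13 ± 0.033 with GLP-1 (adjusted p = 0.00528) and -0.22 ± 0.034 with BMS-21 (adjusted p = 2.04e-05). Acsl3, an acyl-CoA synthetase gene, changed by -0.19 ± 0.057 with GLP-1 (adjusted p = 0.0152) and -0.35 ± 0.071 with BMS-21 (adjusted p = 9.15e-04), and its GLP-1 call was lost without Control replicate 2 (adjusted p = 0.0777). Elovl6, an elongase gene, had 137, 148, 124 and 159.5 TMM-scaled reads in the GLP-1 libraries, 133, 121, 133 and 123 in the BMS-21 libraries and 133, 136, 184 and 176 in the Control libraries, where both agents overlapped with Control. It was at -0.13 ± 0.11 with GLP-1 (adjusted p = 0.409) and -0.28 ± 0.11 with BMS-21 (adjusted p = 0.0422), and its BMS-21 call was lost without BMS-21 replicate 2 or 4 (0.0896 and 0.0963) or Control replicate 3 or 4 (0.168 and 0.146), with no filter on low values (0.0618) and by DESeq2 (0.0784). Me1, which encodes a malic enzyme that yields NADPH, passed with neither, at -0.014 ± 0.034 with GLP-1 (adjusted p = 0.786) and -0.076 ± 0.036 with BMS-21 (adjusted p = 0.114).

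Stard4 went the other way at 6 h, with 1123, 1116, 966 and 1034 TMM-scaled reads in the GLP-1 libraries, 1074, 1020.3, 997 and 1022 in the BMS-21 libraries and 712, 761, 729 and 800.3 in the Control libraries. All agent libraries were above all Control libraries. The change of Stard4 was 0.50 ± 0.052 with GLP-1 (adjusted p = 1.93e-07) and 0.46 ± 0.047 with BMS-21 (adjusted p = 9.99e-08). Insig1 went with the enzymes, with 2467, 2469, 2801 and 2724 TMM-scaled reads in the GLP-1 libraries, 2609, 2364, 2520.4 and 2689 in the BMS-21 libraries and 3098, 3152, 3483 and 3639 in the Control libraries. Its agent libraries were all below Control. Insig1 changed by -0.35 ± 0.052 with GLP-1 (adjusted p = 6.71e-05) and -0.39 ± 0.049 with BMS-21 (adjusted p = 4.10e-06). Srebf2 had 2864, 2909, 2813 and 2978 TMM-scaled reads in the GLP-1 libraries, 2665, 2805, 2733 and 2836 in the BMS-21 libraries and 3382, 3083, 3078 and 3115 in the Control libraries, with all agent libraries below Control and the highest value in Control replicate 1.

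On the log2 scale Srebf2 changed by -0.13 ± 0.037 with GLP-1 (adjusted p = 0.0121) and -0.20 ± 0.038 with BMS-21 (adjusted p = 3.66e-04), and the GLP-1 call was lost without Control replicate 1 (adjusted p = 0.0605). Insig2 had 346, 315, 412 and 381 TMM-scaled reads in the GLP-1 libraries, 386, 401, 494 and 395 in the BMS-21 libraries and 315, 318, 391 and 362 in the Control libraries. Replicate 3 was the highest in each group, and the groups overlapped. Insig2 was at 0.071 ± 0.082 with GLP-1 (adjusted p = 0.555) and 0.27 ± 0.082 with BMS-21 (adjusted p = 0.0141), and the BMS-21 call was lost without BMS-21 replicate 3 (0.0537) or Control replicate 1 or 2 (0.054 and 0.0517). Srebf1 had 1662, 1611, 1478 and 1458 TMM-scaled reads in the GLP-1 libraries, 1479.7, 1512, 1482 and 1399 in the BMS-21 libraries and 1616, 1506, 1424 and 1397 in the Control libraries. Scap had 832, 848, 815 and 783 TMM-scaled reads in the GLP-1 libraries, 801, 840.5, 813 and 866 in the BMS-21 libraries and 946, 855, 835 and 809 in the Control libraries. Neither passed with either agent, and their groups overlapped. Of the calls at 6 h, those lost in replicates 1 and 2 alone were Hsd17b7 (adjusted p = 0.0999) with GLP-1 and Nsdhl (adjusted p = 0.0786) and Elovl6 (0.692) with BMS-21, and those lost in replicates 3 and 4 alone were Dhcr7 (adjusted p = 0.0929) and Srebf2 (0.0785) with GLP-1 and Lss (adjusted p = 0.0895) and Dhcr7 (0.21) with BMS-21.

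**Figure D2:**
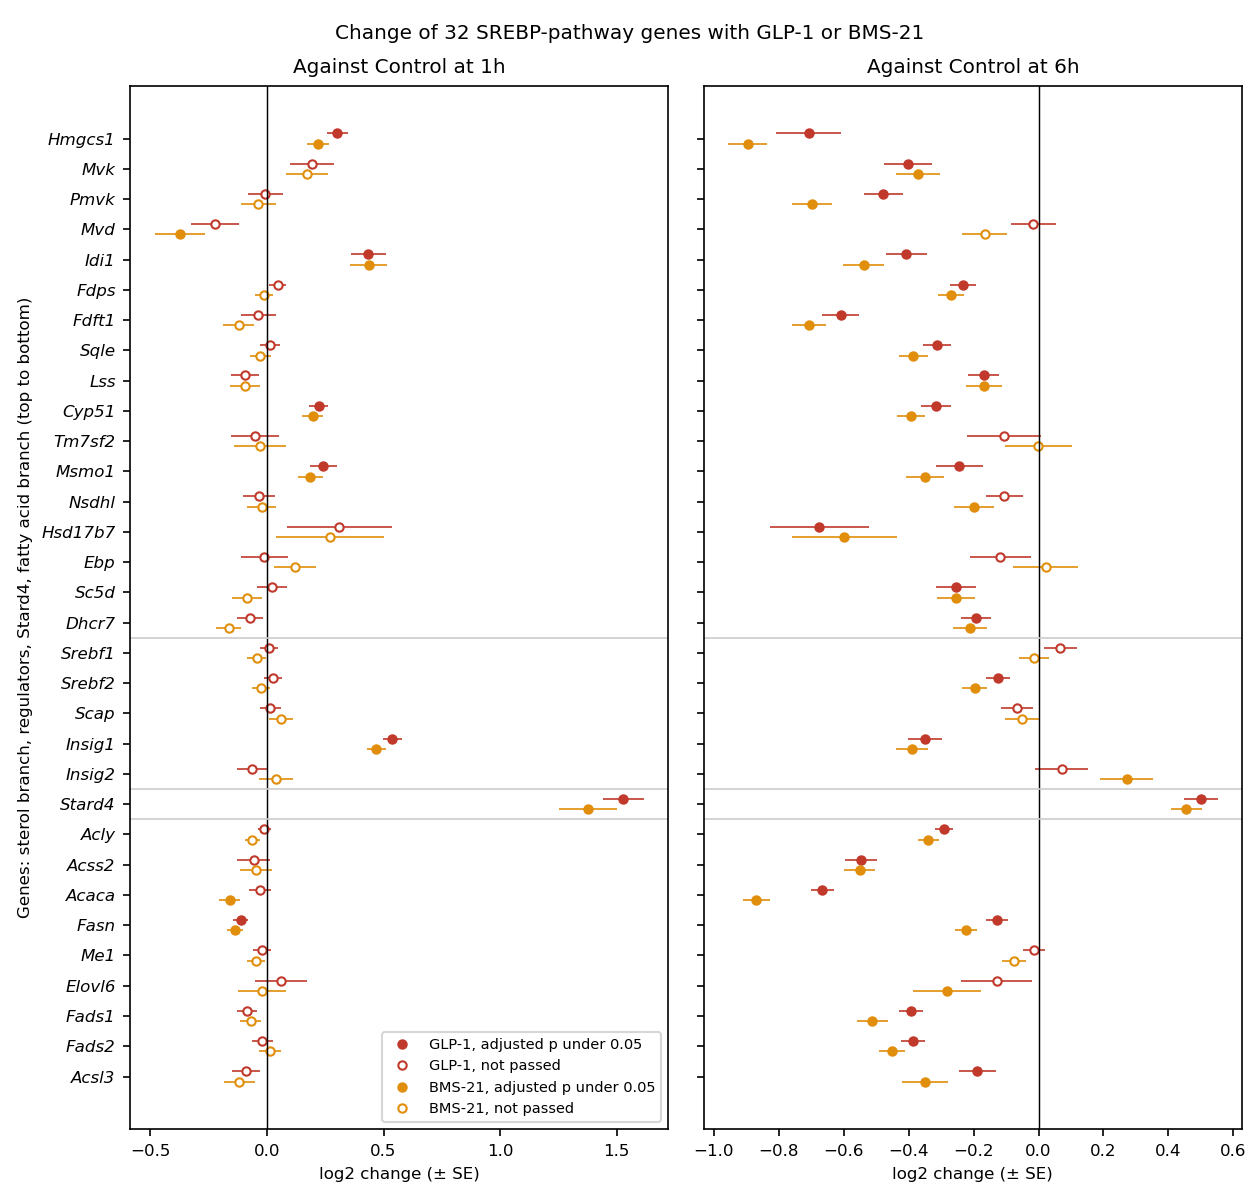
Fitted log2 change against Control (horizontal axis, ± SE) of the 32 genes, at 1 h on the left and 6 h on the right, GLP-1 in red above BMS-21 in orange. Filled points passed the adjusted p of 0.05, and grey lines separate the sterol branch, the regulators, Stard4 and the fatty acid branch. At 6 h most points of both branches are filled and below 0, and Stard4 is above 0 at both times.

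Set side by side, called rises at 1 h were in the sterol branch, and at 6 h both branches were lower. At 1 h, 4 of 17 sterol genes and 0 of 9 fatty acid genes were higher with either agent. Of all genes tested, 4.17% were higher with GLP-1 and 3.54% with BMS-21, so 0 of 9 is near the share of all genes. The fatty acid genes had at an unadjusted p under 0.05 no higher value by limma either, and edgeR and DESeq2 called none higher. The sterol branch median log2 change at 1 h was 0.014 with GLP-1 and -0.023 with BMS-21, beside -0.030 and -0.063 for the fatty acid branch and -0.0015 and 0.00055 for all genes tested. At 6 h the sterol medians were -0.25 with GLP-1 and -0.35 with BMS-21, beside -0.29 and -0.35 for the fatty acid branch and -0.00065 and -0.0015 for all genes. No test was made between the branches.

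Within each treatment 6 h was compared with 1 h, to see how the pathway moved while the cells stayed in the fresh medium. In Control most of the genes rose over time, and fewer did with either agent. The test was edgeR's quasi-likelihood test on the recovered reads of all 24 libraries. With GLP-1, 18 of 32 genes were higher at 6 h than at 1 h and 3 lower, where 29.2% of 13114 genes were higher and 30.2% lower. With BMS-21, 21 were higher and 7 lower, where 30.2% were higher and 31.4% lower. In Control, 26 were higher and 1 lower, where 26.1% were higher and 27.1% lower. Of the 22 members lower than Control at 6 h with GLP-1 and the 24 with BMS-21, 21 and 23 were among these 26. Both calls use the Control libraries at 6 h, so they are not independent.

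The median log2 change over time of the sterol branch was 0.46 with GLP-1, 0.43 with BMS-21 and 0.79 in Control, where 12, 13 and 15 of 17 were higher. That of the fatty acid branch was 0.18, 0.15 and 0.32, where 5, 5 and 8 of 9 were higher, and that of all genes tested was -0.0082, -0.0055 and -0.0064. Hmgcs1 changed by 0.80 ± 0.065 with GLP-1 (adjusted p = 3.86e-12), 0.69 ± 0.066 with BMS-21 (1.34e-10) and 1.81 ± 0.065 in Control (7.27e-21). Idi1 changed by 0.68 ± 0.074 with GLP-1 (adjusted p = 2.57e-09), 0.55 ± 0.075 with BMS-21 (1.70e-07) and 1.52 ± 0.075 in Control (2.23e-17). These entry and isomerase steps of the mevalonate pathway rose in all treatments, with the largest estimate in Control.

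Hsd17b7, which had 24.0, 18.2, 23.0 and 25.5 TMM-scaled reads in the GLP-1 libraries, 27.0, 22.6, 17.3 and 21.6 in the BMS-21 libraries and 15.8, 23.7, 20.6 and 13.6 in the Control libraries at 1 h, changed over time by 0.63 ± 0.19 with GLP-1 (adjusted p = 0.00531), 0.76 ± 0.19 with BMS-21 (9.60e-04) and 1.62 ± 0.18 in Control (4.92e-09). Fdft1 had 373, 317, 319 and 388 TMM-scaled reads in the GLP-1 libraries, 326, 353, 316 and 319.6 in the BMS-21 libraries and 386, 320.0, 366 and 363 in the Control libraries at 1 h, where both agents overlapped with Control. It changed over time by 0.68 ± 0.068 with GLP-1 (adjusted p = 5.04e-10), 0.67 ± 0.070 with BMS-21 (7.52e-10) and 1.25 ± 0.065 in Control (9.68e-17). Mvk, the mevalonate kinase gene, showed a rise that passed in Control and not with the agents. Mvk had 216, 234, 252 and 270.1 TMM-scaled reads in the GLP-1 libraries, 247, 237, 269 and 241 in the BMS-21 libraries and 333, 310.2, 305 and 338 in the Control libraries at 6 h, where all libraries of both agents lay below all Control libraries. At 1 h Mvk had 216, 245, 261 and 216 TMM-scaled reads in the GLP-1 libraries, 237, 216, 232 and 236 in the BMS-21 libraries and 240.5, 203, 214 and 168 in the Control libraries, where both agents overlapped with Control. It changed over time by 0.043 ± 0.084 with GLP-1 (adjusted p = 0.685), 0.099 ± 0.084 with BMS-21 (0.317) and 0.63 ± 0.082 in Control (9.35e-08).

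Mvd, which was lower at 1 h with BMS-21, rose in all treatments, by 1.67 ± 0.084 with GLP-1 (adjusted p = 2.91e-17), 1.67 ± 0.087 with BMS-21 (6.56e-17) and 1.46 ± 0.081 in Control (4.50e-16). Dhcr7, whose product makes cholesterol in the last step, also rose in all treatments. It had 857, 835, 873 and 910.2 TMM-scaled reads in the GLP-1 libraries, 797, 820.3, 915 and 912 in the BMS-21 libraries and 1048, 984, 927 and 1029.8 in the Control libraries at 6 h, where all libraries of both agents lay below all Control libraries. At 1 h it had 499, 511, 458 and 453 TMM-scaled reads in the GLP-1 libraries, 441, 459, 439 and 462 in the BMS-21 libraries and 505, 508, 511 and 499 in the Control libraries, where GLP-1 overlapped with Control and all BMS-21 libraries lay below Control. Dhcr7 changed over time by 0.84 ± 0.051 with GLP-1 (adjusted p = 3.45e-15), 0.93 ± 0.052 with BMS-21 (4.09e-16) and 0.97 ± 0.050 in Control (8.76e-17). Pmvk, by contrast, rose in Control and fell with BMS-21. It had 413, 398, 417 and 350.3 TMM-scaled reads in the GLP-1 libraries, 423, 400.3, 371 and 353 in the BMS-21 libraries and 468, 382, 383 and 363 in the Control libraries at 1 h, where both agents overlapped with Control. Pmvk changed over time by -0.11 ± 0.072 with GLP-1 (adjusted p = 0.211), -0.29 ± 0.074 with BMS-21 (9.82e-04) and 0.37 ± 0.069 in Control (3.55e-05).

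In the fatty acid branch, Acss2 rose in all treatments. It had 363, 426, 334 and 335 TMM-scaled reads in the GLP-1 libraries, 394, 404, 331 and 340.1 in the BMS-21 libraries and 373, 386, 386 and 370.3 in the Control libraries at 1 h, where both agents overlapped with Control. Acss2 changed over time by 0.64 ± 0.064 with GLP-1 (adjusted p = 3.87e-10), 0.64 ± 0.064 with BMS-21 (4.85e-10) and 1.14 ± 0.061 in Control (2.35e-16). Elovl6, the elongase gene, also rose in all treatments. Elovl6 had 90.1, 103, 124 and 112 TMM-scaled reads in the GLP-1 libraries, 98.0, 102, 96.0 and 108 in the BMS-21 libraries and 91.7, 98.8, 112 and 109.5 in the Control libraries at 1 h, where both agents overlapped with Control. It changed over time by 0.39 ± 0.11 with GLP-1 (adjusted p = 0.00275), 0.33 ± 0.11 with BMS-21 (0.0127) and 0.60 ± 0.11 in Control (2.20e-05). Acly, the citrate lyase gene, had 38697, 39657, 37555 and 37323 TMM-scaled reads in the GLP-1 libraries, 37834, 38753, 35615 and 35931 in the BMS-21 libraries and 39189, 40062, 38202 and 37469 in the Control libraries at 1 h, where both agents overlapped with Control. Acly changed over time by 0.29 ± 0.032 with GLP-1 (adjusted p = 4.61e-09), 0.30 ± 0.032 with BMS-21 (2.68e-09) and 0.57 ± 0.033 in Control (8.99e-16). Fasn changed over time by 0.30 ± 0.034 with GLP-1 (adjusted p = 5.57e-09), 0.23 ± 0.034 with BMS-21 (6.32e-07) and 0.32 ± 0.034 in Control (1.99e-09).

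Acaca, Fads1 and Fads2 rose in Control over time and had values below 0 with the agents. Acaca changed by -0.15 ± 0.051 with GLP-1 (adjusted p = 0.0138), -0.21 ± 0.052 with BMS-21 (6.70e-04) and 0.50 ± 0.050 in Control (7.15e-10), its GLP-1 call lost without GLP-1 1 h replicate 1 or 2 (adjusted p = 0.052 and 0.0977). Fads1 had 1445, 1510.0, 1338 and 1425 TMM-scaled reads in the GLP-1 libraries, 1504, 1528, 1369 and 1379 in the BMS-21 libraries and 1574, 1568, 1481 and 1453 in the Control libraries at 1 h, where both agents overlapped with Control. It changed over time by -0.11 ± 0.048 with GLP-1 (adjusted p = 0.0557), -0.23 ± 0.048 with BMS-21 (1.17e-04) and 0.21 ± 0.047 in Control (3.97e-04), and under the replicate block it passed as lower with GLP-1 (0.00525). Fads2, its neighbour on the chromosome, had 1282, 1328, 1188 and 1213 TMM-scaled reads in the GLP-1 libraries, 1371, 1309, 1235 and 1221 in the BMS-21 libraries and 1288, 1358, 1251 and 1197 in the Control libraries at 1 h, where both agents overlapped with Control. Fads2 changed over time by -0.065 ± 0.043 with GLP-1 (adjusted p = 0.193), -0.16 ± 0.043 with BMS-21 (0.0017) and 0.30 ± 0.042 in Control (2.84e-07). Acsl3, lower than Control at 6 h with both agents, changed over time by -0.080 ± 0.070 with GLP-1 (adjusted p = 0.332), -0.20 ± 0.071 with BMS-21 (0.0146) and 0.018 ± 0.068 in Control (0.843).

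Stard4 and Insig1 rose over time in Control, and their estimates with the agents were smaller. Stard4 changed by 0.080 ± 0.089 with GLP-1 (adjusted p = 0.453), 0.19 ± 0.090 with BMS-21 (0.0701) and 1.13 ± 0.10 in Control (8.30e-11), and passed with BMS-21 when the replicate number was a block (adjusted p = 0.00194). Insig1 changed by 0.11 ± 0.050 with GLP-1 (adjusted p = 0.0712), 0.14 ± 0.050 with BMS-21 (0.0199) and 1.00 ± 0.051 in Control (6.22e-17). With the block it passed with GLP-1 as well (0.00306), and its BMS-21 call was lost without BMS-21 1 h replicate 3 (0.0518) or 6 h replicate 1 or 4 (0.0523 and 0.0836). Srebf1 fell in every treatment, changing by -0.70 ± 0.048 with GLP-1 (adjusted p = 5.90e-14), -0.73 ± 0.048 with BMS-21 (2.20e-14) and -0.75 ± 0.048 in Control (1.32e-14). Srebf2 rose in every treatment, by 0.36 ± 0.038 with GLP-1 (adjusted p = 8.27e-10), 0.35 ± 0.038 with BMS-21 (2.05e-09) and 0.52 ± 0.037 in Control (3.20e-13). The genes of the factors for the fatty acid and the sterol branch moved in opposite directions over time.

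Scap changed by -0.14 ± 0.050 with GLP-1 (adjusted p = 0.0141), -0.17 ± 0.049 with BMS-21 (0.00376) and -0.056 ± 0.049 in Control (0.352), its GLP-1 call lost without GLP-1 1 h replicate 3 (adjusted p = 0.051) or 6 h replicate 4 (0.055). Insig2 changed by 0.18 ± 0.085 with GLP-1 (adjusted p = 0.0743), 0.27 ± 0.083 with BMS-21 (0.00555) and 0.042 ± 0.085 in Control (0.7), passed with GLP-1 under the block (0.0168) and lost its BMS-21 call without 6 h replicate 3 (0.0513). The BMS-21 calls of Sc5d and Acsl3 were lost without 1 h replicate 3 (0.0548, Sc5d) and without 1 h replicate 1 or 6 h replicate 3 (0.0513 and 0.0885, Acsl3). Under the block Tm7sf2 passed as higher with BMS-21 (0.0447), with a log2 change of 0.23 ± 0.11. In replicates 1 and 2 alone the calls lost were Scap (adjusted p = 0.428) with GLP-1 and Hsd17b7 (adjusted p = 0.251), Sc5d (0.132) and Acsl3 (0.0516) with BMS-21, and in replicates 3 and 4 alone Hsd17b7 (adjusted p = 0.126), Acaca (0.184) and Elovl6 (0.13) with GLP-1 and Pmvk (adjusted p = 0.054), Elovl6 (0.0527) and Fads2 (0.0925) with BMS-21.

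**Figure D3:**
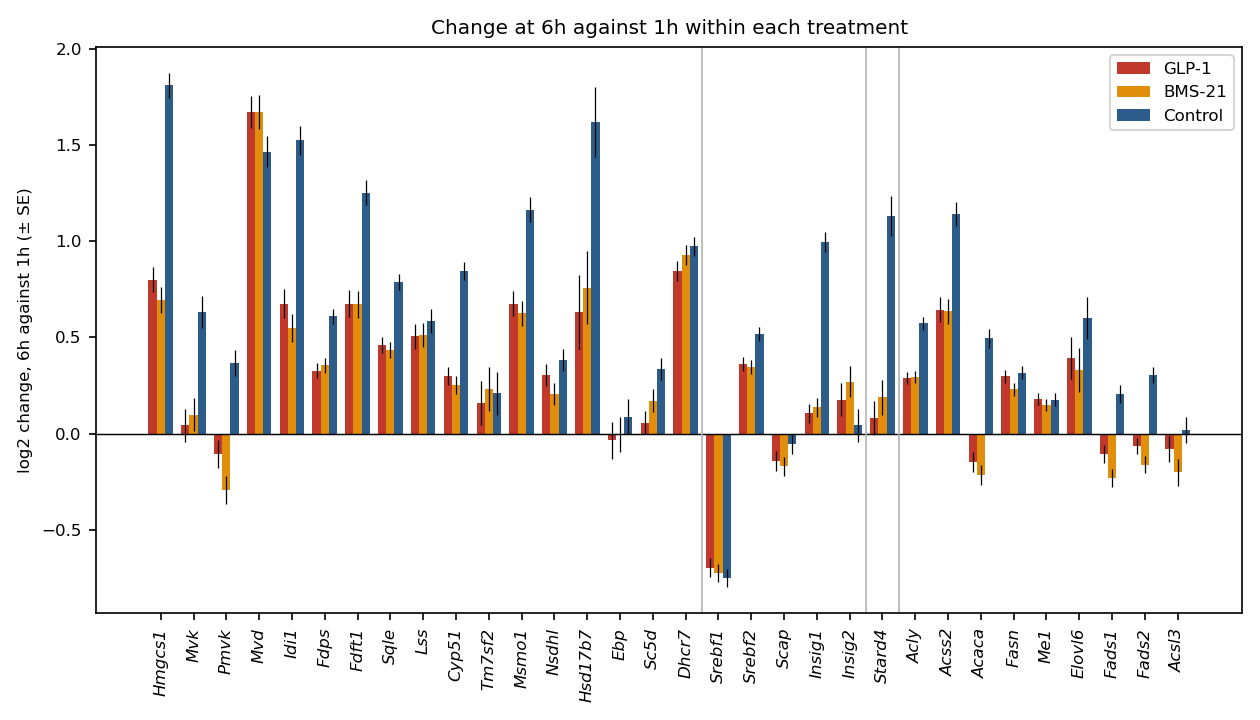
Log2 change at 6 h against 1 h (bars start at 0, black lines are ± SE derived from edgeR's F statistic) of the 32 genes with GLP-1, BMS-21 and in Control. Grey lines separate the sterol branch, the regulators, Stard4 and the fatty acid branch. The Control bar is taller than both agents' bars for Hmgcs1, Idi1, Hsd17b7, Fdft1, Insig1 and Stard4, and Srebf1 is below 0 in all 3 treatments.

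The difference between the responses at 6 h and at 1 h was tested as an interaction in the same edgeR fit. For GLP-1, 19 of 32 had a lower response at 6 h than at 1 h and 0 a higher one, where 9.1% of 13114 genes were lower and 8.46% higher. For BMS-21 the numbers were 18 and 0, where 11% were lower and 10.8% higher. No member had a higher response at 6 h at an unadjusted p under 0.05, and DESeq2 called none, but under the replicate block Insig2 was called higher for BMS-21 (log2 difference 0.23 ± 0.12, adjusted p = 0.182 without the block and 0.0444 with it). The largest were Hmgcs1, Hsd17b7, Insig1, Idi1 and Stard4. For Hmgcs1 the log2 difference was -1.01 ± 0.092 for GLP-1 (adjusted p = 8.16e-10) and -1.12 ± 0.093 for BMS-21 (9.88e-11), with Stard4 at -1.05 ± 0.14 for GLP-1 (adjusted p = 8.53e-07) and -0.94 ± 0.14 for BMS-21 (4.56e-06). Insig1 was at -0.89 ± 0.071 for GLP-1 (adjusted p = 4.50e-11) and -0.86 ± 0.072 for BMS-21 (9.32e-11). In the fatty acid branch Acaca was at -0.64 ± 0.072 for GLP-1 (adjusted p = 5.11e-08) and -0.71 ± 0.072 for BMS-21 (6.58e-09). Acaca, Acss2, Acly, Fads1 and Fads2 passed for both agents, as did 10 of the 17 sterol genes.

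Not all of these calls were firm. The Srebf2 difference, -0.16 ± 0.053 for GLP-1 (adjusted p = 0.0377) and -0.17 ± 0.053 for BMS-21 (0.0184), was lost for GLP-1 without any 1 of 7 libraries (GLP-1 1 h replicates 3 and 4, Control 1 h replicates 2 and 4, GLP-1 6 h replicates 1 and 3 and Control 6 h replicate 1, adjusted p 0.061 to 0.111) or with no filter on low counts (0.0679), and for BMS-21 without BMS-21 1 h replicate 3 (0.0508) or Control 6 h replicate 1 (0.058). Sc5d, a sterol desaturase gene, passed for GLP-1 and not without Control 1 h replicate 2 (0.0507), and Hsd17b7 for BMS-21 not without BMS-21 1 h replicate 1 (0.0717) or Control 1 h replicate 4 (0.0567). Acsl3 passed as lower for BMS-21 under the block (-0.22 ± 0.098, adjusted p = 0.114 without it and 0.00727 with it). In replicates 1 and 2 alone the calls lost were Hsd17b7 (adjusted p = 0.389), Sc5d (0.0575) and Srebf2 (0.0754) for GLP-1 and Hsd17b7 (adjusted p = 0.0793) for BMS-21, and in replicates 3 and 4 alone Sc5d (adjusted p = 0.163) and Srebf2 (0.133) for GLP-1 and Hsd17b7 (adjusted p = 0.194) and Srebf2 (0.167) for BMS-21. Mvd, Me1 and Srebf1 did not pass, with 0.21 ± 0.12, 0.0032 ± 0.047 and 0.056 ± 0.067 for GLP-1 and 0.21 ± 0.12, -0.028 ± 0.047 and 0.027 ± 0.067 for BMS-21.

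How far Stard4 departed from the other SREBP-pathway genes was measured as the log2 ratio of its reads to those of Insig1, the feedback gene, and of Hmgcs1 within each library. At 1 h the log2 ratio to Insig1 was -1.07, -1.07, -1.67 and -1.37 in the GLP-1 libraries, -1.14, -1.19, -1.76 and -1.40 in the BMS-21 libraries and -2.27, -2.20, -2.37 and -2.30 in the Control libraries. Every agent library was above every Control library, and replicate 3 was the lowest with each agent. At 6 h the ratio was -1.13, -1.15, -1.53 and -1.40 with GLP-1 and -1.28, -1.21, -1.34 and -1.39 with BMS-21, against -2.12, -2.05, -2.25 and -2.18 in Control. Agent and Control libraries were again apart. Stard4 stood higher relative to Insig1 with either agent, by 0.99 (GLP-1) and 0.91 (BMS-21) at 1 h and by 0.85 and 0.85 at 6 h.

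The log2 ratio of Stard4 to Hmgcs1 averaged 0.16 ± 0.25 with GLP-1 and 0.094 ± 0.25 with BMS-21, against -1.07 ± 0.074 in Control, at 1 h, and -0.54 ± 0.27 and -0.39 ± 0.095 against -1.74 ± 0.11 at 6 h (SD, n = 4 each). The differences were 1.23 and 1.16 at 1 h and 1.21 and 1.35 at 6 h. Each of the 8 ratio comparisons had a two-sided exact permutation p of 0.0286, the smallest that 4 against 4 libraries allow, and 0.0286 adjusted over the 8. At 6 h this p was fixed in advance, since all agent libraries lay above Control for Stard4 and below it for Insig1 and Hmgcs1. At 1 h it was fixed by the levels given above as well. There the lowest agent library of Stard4 stood above its highest Control library by a larger factor than any pair for Insig1 or Hmgcs1. The comparisons also share Stard4 and Control values, so they are not independent, and at either time they add nothing to the separation already shown. With the replicates paired, the smallest p that an exact sign-flip test of 4 pairs allows is 0.125. A ratio shows unequal change of the 2 genes, and at 6 h Hmgcs1 and Insig1 themselves were lower than Control with the agents.

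**Figure D4:**
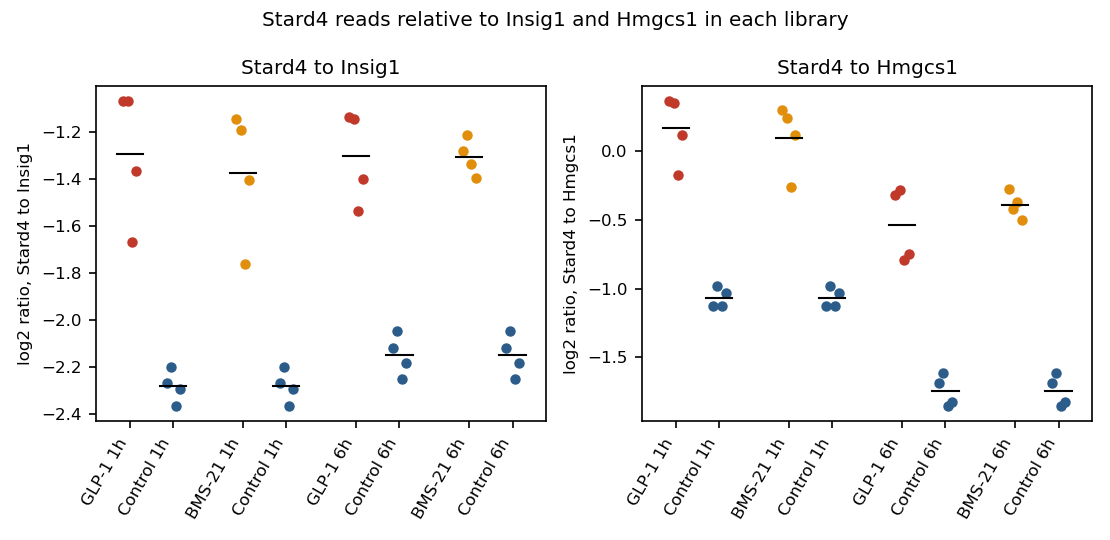
Log2 ratio of Stard4 reads to Insig1 reads (left) and to Hmgcs1 reads (right) in each library, with the mean as a black line; each agent stands left of the Control libraries of its time. Every agent library is above every Control library of the same time in all 8 comparisons.

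BMS-21 at 1 µM and GLP-1 at 100 nM, doses that differ, were compared directly in 2 of the deposited tables. Of the 32 genes, 0 passed at 1 h by limma, where 0% of 12672 genes were called, and 0 at 6 h, where 0.0158% of 12629 genes were called. At an unadjusted p under 0.05, limma gave 0 members at 1 h and 8 at 6 h, 7 of them lower with BMS-21, edgeR called 0 at each time, and DESeq2 called 0 at 1 h and Acaca at 6 h. The log2 difference of Stard4 was -0.15 (95% confidence interval -0.58 to 0.28) at 1 h and -0.041 (95% confidence interval -0.15 to 0.063) at 6 h. That of Hmgcs1 was -0.082 (95% confidence interval -0.17 to 0.0078) and -0.19 (95% confidence interval -0.35 to -0.019). That of Acaca was -0.13 (95% confidence interval -0.27 to 0.0078) and -0.20 (95% confidence interval -0.29 to -0.11). These intervals do not show that the agents act alike.

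The replicate number as a block changed this comparison. With it, Stard4 (adjusted p = 0.0208), Acly (0.02) and Acaca (5.38e-04) were lower with BMS-21 than with GLP-1 at 1 h, and Hmgcs1 (0.0413), Pmvk (0.0417), Acaca (4.46e-05) and Fasn (0.0364) at 6 h, with log2 differences as without the block (-0.050 for Acly, -0.22 for Pmvk and -0.092 for Fasn on the log2 scale). Over all genes the blocked fit called 28 of 12672 higher and 57 lower with BMS-21 at 1 h. At 6 h it called 97 of 12629 higher and 120 lower. Under the block Acaca was called at both times. Its BMS-21 libraries at 6 h were all below its GLP-1 libraries, and the sterol and fatty acid medians were -0.072 and -0.092 at 6 h, beside 0.0023 for all genes. By the adjusted p of the authors' deposited table, 0 of the 32 passed at 1 h and 1 at 6 h, where 8 had no adjusted p. The share of all genes at the authors' adjusted p was not counted here.

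Other lipid genes were counted in the same way, and their counts stand beside the shares of all genes tested, 4.17% higher and 2.41% lower with GLP-1 and 3.54% and 2.37% with BMS-21 at 1 h, and 16.2% and 15.6% with GLP-1 and 16.8% and 16.8% with BMS-21 at 6 h. With so few genes in a list, nothing is read from the counts. Of 7 sterol export, esterification and oxysterol genes, 0 rose and 1 fell with GLP-1 and 0 rose and 1 fell with BMS-21 at 1 h, and 1 rose and 1 fell with GLP-1 and 2 rose and 1 fell with BMS-21 at 6 h. The gene that fell at 1 h was Mylip, the ubiquitin ligase that degrades lipoprotein receptors, with a log2 change of -0.64 ± 0.054 (adjusted p = 1.39e-09) with GLP-1 and -0.68 ± 0.054 (adjusted p = 2.56e-09) with BMS-21. The gene that fell at 6 h was Abca1, the cholesterol exporter, with -0.39 ± 0.041 (adjusted p = 2.43e-07) with GLP-1 and -0.54 ± 0.039 (adjusted p = 3.66e-10) with BMS-21. Of 9 sterol transport and START-domain genes other than Stard4, 0 rose and 1 fell with either agent at 1 h, the faller being Stard5 at -0.23 ± 0.054 (adjusted p = 0.00722) with GLP-1 and -0.28 ± 0.057 (adjusted p = 0.00227) with BMS-21. At 6 h 2 rose and 3 fell with GLP-1 and 2 rose and 2 fell with BMS-21. Osbp, an oxysterol-binding protein gene, rose at 6 h by 0.20 ± 0.041 (adjusted p = 7.76e-04) with GLP-1 and 0.25 ± 0.039 (adjusted p = 2.36e-05) with BMS-21.

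Of 9 genes of SREBP proteolysis and INSIG turnover, 1 rose and 1 fell with either agent at 1 h, and 2 rose and 0 fell with GLP-1 and 3 rose and 1 fell with BMS-21 at 6 h. At 1 h Fbxw7, whose ubiquitin ligase degrades nuclear SREBPs, was at 0.82 ± 0.074 (adjusted p = 4.90e-09) with GLP-1 and 0.85 ± 0.089 (adjusted p = 8.00e-07) with BMS-21. Rnf145, a ubiquitin ligase gene of the same membrane system, was at -0.16 ± 0.040 (adjusted p = 0.0133) with GLP-1 and -0.15 ± 0.040 (adjusted p = 0.0258) with BMS-21. At 6 h Erlin1, part of a complex that helps degrade endoplasmic reticulum proteins, was at 0.21 ± 0.044 (adjusted p = 7.49e-04) with GLP-1 and 0.25 ± 0.043 (adjusted p = 1.25e-04) with BMS-21. Of 15 other lipid synthesis genes, 1 rose and 1 fell with GLP-1 and 0 rose and 0 fell with BMS-21 at 1 h, and 3 rose and 4 fell with GLP-1 and 3 rose and 4 fell with BMS-21 at 6 h. Aacs, the acetoacetyl-CoA synthetase gene that feeds both branches, had the smallest p of the list at 6 h, at -0.57 ± 0.044 (adjusted p = 2.06e-09) with GLP-1 and -0.70 ± 0.044 (adjusted p = 5.39e-11) with BMS-21. Of the 7 beta-cell markers, 2 rose and 0 fell with GLP-1 and 3 rose and 0 fell with BMS-21 at 1 h, and 2 rose and 2 fell with GLP-1 and 3 rose and 2 fell with BMS-21 at 6 h, among them Slc2a2, the glucose transporter gene, at -0.67 ± 0.031 (adjusted p = 7.97e-13) with GLP-1 and -0.68 ± 0.034 (adjusted p = 9.86e-13) with BMS-21.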

How the data were processed

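The 24 libraries were made with a kit that does not mark strand, so reads of antisense and overlapping genes, and of close paralogs, cannot be told apart. Per the submitters' processing notes, the build was Rnor_5.0 and the tools named were TopHat2 2.0.12, Bowtie2 2.2.3.0, SAMtools 0.1.19.0, Subread, DESeq and DESeq2 1.6.3, with no role given to each. The authors deposited 6 tables of 8 libraries each, with normalised read counts (a signal, counts divided by 1 size factor per library), a log2 fold change and an adjusted p-value per gene. Values were whole multiples of 1 step per library (100% within 0.001), which gave back the reads, the same in both tables of a library for all 26404 identifiers. A count of 0 allows up to 3 reads, or 0.228 to 0.281 RPM, for counting error only.

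Pairs of groups were tested with limma 3.58.1 (trend, robust) on log2 of the normalised count plus 1, which understates changes of low genes, where the mean over the 8 libraries was 10 or more. Times and interactions were tested with edgeR 4.0.16 (glmQLFTest with TMM factors after filterByExpr) on those reads, in R 4.3.3. The threshold was a Benjamini-Hochberg adjusted p under 0.05 over all genes, a fold is 2 to the power of the log2 change, and ± after a log2 change is the SE. For edgeR this SE was not estimated directly. It is the absolute log2 change divided by the square root of the F statistic of the test. DESeq2 1.42.0 was an alternative, and the scripts were tested on simulated data. Replicate libraries differed beyond sampling noise (chi-square per degree of freedom 1.30 to 5.44 over 36 pairs). Within each group, replicates 1 and 2 and replicates 3 and 4 were the closest pairs, at 1.30 to 2.76. The pairs across these were at 2.55 to 5.44, and the tests without a block did not model this split. Deviations from group means of same-numbered libraries correlated by 0.13 to 0.41 in all 24 pairs within a time. Across times they correlated by 0.14 to 0.36 in all 12 pairs. Pairs of different numbers were not compared and the labels do not say what the numbers mark, so pairing by number was not shown. Blocked values are printed beside the results that they change. Values in every library are given for Stard4, the regulators and up to 4 called members of each branch with the largest change per comparison, and up to 2 genes with the smallest adjusted p are named from each other list, of which Tecr and Pcyt1a were not analysed here and Nr1h3 and Ch25h were under the mean of 10. A further beta-cell marker is not reported here. The members and lists were chosen with earlier results of these data known.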

Additional observations from a re-analysis of the deposited data

Results flagged for a closer look

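Of 192 groups of 4 libraries (32 genes in 6 groups), 7 had a library far from the other 3, and chance alone flags about 1 in 20 groups. The highest values were Tm7sf2 in BMS-21 1 h replicate 2 (146 TMM-scaled reads), Insig1 in BMS-21 1 h replicate 4 (2432), Acaca in GLP-1 6 h replicate 2 (2546), Insig2 in BMS-21 6 h replicate 3 (494) and Srebf2 in Control 6 h replicate 1 (3382). The lowest were Cyp51 in Control 1 h replicate 2 (1223) and Nsdhl in Control 6 h replicate 2 (385).

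The response differed between 6 h and 1 h for 37 combinations of gene and agent, each by the edgeR interaction test and each lower at 6 h. For GLP-1 the log2 differences in the sterol branch were -1.01 for Hmgcs1, -0.59 for Mvk, -0.47 for Pmvk, -0.85 for Idi1, -0.28 for Fdps, -0.58 for Fdft1, -0.33 for Sqle, -0.54 for Cyp51, -0.49 for Msmo1, -0.99 for Hsd17b7 and -0.28 for Sc5d. In the fatty acid branch they were -0.28 for Acly, -0.50 for Acss2, -0.64 for Acaca, -0.31 for Fads1 and -0.37 for Fads2 for GLP-1. Among regulators and Stard4 they were -0.16 for Srebf2, -0.89 for Insig1 and -1.05 for Stard4 for GLP-1. For BMS-21 the sterol branch gave -1.12 for Hmgcs1, -0.53 for Mvk, -0.66 for Pmvk, -0.98 for Idi1, -0.26 for Fdps, -0.58 for Fdft1, -0.36 for Sqle, -0.59 for Cyp51, -0.54 for Msmo1 and -0.86 for Hsd17b7. Its fatty acid branch gave -0.28 for Acly, -0.51 for Acss2, -0.71 for Acaca, -0.44 for Fads1 and -0.47 for Fads2. The regulators and Stard4 gave -0.17 for Srebf2, -0.86 for Insig1 and -0.94 for Stard4 for BMS-21. Srebf2 was higher in Control 6 h replicate 1 than in the other libraries of its group, and without that library its adjusted p was 0.111 for GLP-1 and 0.058 for BMS-21.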

How the results depend on the processing

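The comparisons at a single time were recomputed with other pseudocounts, filters, scalings and tools and with all libraries in 1 fit, and those over time with other scalings and tools and no filter. All were recomputed with a replicate block, with 2 of the 4 replicates and without each library. No called member changed direction in any of these, and of the recomputed member tests 6742 kept their side of the threshold, 109 lost it and 55 gained it. The counts of calls that moved by over 1.5 times were BMS-21 against Control at 1 h, with 4 members in replicates 3 and 4 alone (3 higher and 1 lower, against 6 and 3), and BMS-21 against GLP-1, with 3 members at 1 h and 4 at 6 h under the replicate block, 1 at 6 h by DESeq2 and 2 at 6 h in replicates 3 and 4 alone, against 0. Over all genes the first of these gave 318 higher and 179 lower, against 450 and 301. For BMS-21 against GLP-1 the block gave 28 higher and 57 lower at 1 h and 97 and 120 at 6 h. At 6 h DESeq2 gave 8 and 10, and replicates 3 and 4 alone gave 19 and 20, against 1 and 1. The cause of these moves was not tested. The block changed no calls but those given beside the results.

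Scaled by library totals, the sterol median was -0.019 with GLP-1 and -0.054 with BMS-21 at 1 h, and the fatty acid median -0.35 with GLP-1 at 6 h and 0.34 in Control over time. In replicates 3 and 4 alone the fatty acid median was -0.35 with GLP-1 and -0.47 with BMS-21 at 6 h, 0.22 with GLP-1 and 0.36 in Control over time, and -0.37 for the BMS-21 response over time, and the sterol median of that response was -0.45. In replicates 1 and 2 alone it was -0.27, and the medians over time with GLP-1 were 0.40 (sterol) and 0.14 (fatty acid).

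Without each library in turn, the members called ranged as follows. For GLP-1 against Control at 1 h they were 6 to 7, with a sterol median of -0.028 to 0.050 and a fatty acid median of -0.076 to -0.014. For BMS-21 against Control at 1 h they were 6 to 9, with a sterol median of -0.026 to 0.0062 and a fatty acid median of -0.096 to -0.044. For GLP-1 against Control at 6 h they were 21 to 23, with a sterol median of -0.29 to -0.22 and a fatty acid median of -0.31 to -0.28. For BMS-21 against Control at 6 h they were 24 to 25, with a sterol median of -0.39 to -0.30 and a fatty acid median of -0.40 to -0.32. For BMS-21 against GLP-1 at 1 h they were 0, with a sterol median of -0.051 to -0.025 and a fatty acid median of -0.039 to -0.016. For BMS-21 against GLP-1 at 6 h they were 0, with a sterol median of -0.096 to -0.039 and a fatty acid median of -0.10 to -0.078. For GLP-1 at 6 h against 1 h they were 20 to 24, with a sterol median of 0.44 to 0.48 and a fatty acid median of 0.16 to 0.19. For BMS-21 at 6 h against 1 h they were 26 to 30, with a sterol median of 0.40 to 0.45 and a fatty acid median of 0.13 to 0.16. For Control at 6 h against 1 h they were 27, with a sterol median of 0.76 to 0.81 and a fatty acid median of 0.31 to 0.33. For the GLP-1 response at 6 h against 1 h they were 17 to 19, with a sterol median of -0.35 to -0.30 and a fatty acid median of -0.30 to -0.27. For the BMS-21 response at 6 h against 1 h they were 17 to 19, with a sterol median of -0.38 to -0.33 and a fatty acid median of -0.34 to -0.26.

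Likewise, the log2 difference in the ratio of Stard4 to Insig1 was 0.92 to 1.12 (GLP-1) and 0.83 to 1.04 (BMS-21) at 1 h and 0.79 to 0.93 and 0.81 to 0.88 at 6 h; to Hmgcs1 was 1.16 to 1.34 (GLP-1) and 1.09 to 1.28 (BMS-21) at 1 h and 1.12 to 1.29 and 1.31 to 1.40 at 6 h. Hsd17b7, with the fewest reads, had the largest SE of the 32 in all 11 comparisons.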
